A study of Mus musculus with 15 samples.

Results

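A set of 31 genes of nucleotide synthesis and one-carbon metabolism was followed in CD8+ OT-I cells, T cells that all carry the same transgenic receptor, which sees the ovalbumin peptide SIINFEKL. Members are a list of gene names set by role, matched by gene symbol in GENCODE M21 (GRCm38). All 31 were found among the 55536 genes matched in the deposited gene table, and all 31 passed the filter on low counts that left 17366 genes for testing. By step, 14 members belong to purine synthesis and interconversion, 5 to pyrimidine synthesis, 7 to deoxynucleotide supply and 5 to folate metabolism.

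RNA sequencing was done on 15 libraries, 5 in each of 3 groups, all from OT-I transgenic C57BL/6J cells of spleen and lymph nodes. Naive libraries came from OT-I mice whose cells were not transferred. Ag libraries came from OT-I cells moved into wild-type C57BL/6J recipients that were given SIINFEKL peptide with rat IgG, and Ag+Costim libraries from recipients given the peptide with agonist antibodies to OX40 and 41BB (CD134 and CD137). The labels give collection of the transferred cells at day 4, followed by sorting, whereas the study's methods give a slightly earlier time. Donor OT-I mice lacked Rag1 or Rag2 per the study's methods and so made no B cells and no T cells of another receptor, whereas the recipients kept theirs. Mice of both sexes were used. The labels do not say whether each library is a separate animal. The study's figure legend for 5 libraries per group describes each as its own biological replicate. The p-values measure the spread between libraries.

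Cells build purine nucleotides stepwise on a ribose phosphate until inosine monophosphate (IMP) is formed, which then branches to AMP and GMP. Pyrimidines are made as an orotate ring that is joined to ribose afterwards, giving UMP and then CTP. Ribonucleotide reductase turns ribonucleotides into deoxynucleotides for DNA, and folate carries the one-carbon units needed for the purine ring and for thymidylate. T cells that leave rest and begin to divide are known to draw heavily on these routes.

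Total counts per library ran from 4865952 (Ag 3) to 25280667 (Naive 3). Levels are given as CPM (counts scaled to a common library size) on library sizes scaled by the TMM method. Some libraries stood apart from their groups. The summed CPM of 10 proliferation genes (such as Mki67 and Top2a) was 310.1, 1235.0, 160.1, 143.2 and 3345.8 in Naive 1 to 5. It was 679.7, 4440.9, 3290.0, 675.0 and 4622.3 in Ag 1 to 5, and between 4240.3 and 5029.1 in Ag+Costim. Naive 5 was therefore near the Ag+Costim libraries on this list, and Ag 1 and Ag 4 were near the other Naive libraries. All 8 CD8 T cell markers had counts in every library, with a summed level between 5322.7 and 9407.0 CPM. The summed level of 8 B cell markers was 164.0, 444.9 and 204.7 CPM in Ag 1, Ag 3 and Ag 4, and between 15.6 and 37.7 CPM in the other libraries. Of 7 erythroid markers, the sum reached 712.1 CPM in Ag 3 against at most 84 CPM elsewhere, and of 10 myeloid markers it reached 747.2 CPM in Naive 5 against at most 319.5 CPM elsewhere. For 5 markers of CD4 T cells the sum was between 9.8 and 76.7 CPM. No marker of these lists was at 0 in all libraries of a group. The percent of sequenced reads that were counted was 16.9 in Ag 3, between 37.4 and 46.8 in Naive and in Ag 1 and Ag 4, and between 51.9 and 53.6 in Ag 2, Ag 5 and Ag+Costim. The part of these differences in the members' values was not tested. In bulk samples, fewer cells of a type and less RNA per cell cannot be told apart.

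Ag against Naive sets transferred cells given antigen and IgG beside cells that were not transferred, so the parts of these cannot be told apart. Ag+Costim against Ag asks what the agonist antibodies added in place of IgG. Ag+Costim against Naive covers transfer, antigen and costimulation together. The 5 largest rises were those of deoxynucleotide genes (Rrm2, Tk1, Tyms, Rrm1 and Dut, in Ag+Costim over Naive). In Ag+Costim against Naive, 21 members rose and 2 fell by edgeR's quasi-likelihood test at a Benjamini-Hochberg FDR under 0.05, the test meant wherever a member is called, rose, fell or passed without another tool being named. Over all genes tested, 21.0% were called higher and 23.6% lower in this comparison. The members' median log2 fold change was 0.89, against -0.08 over all genes. Every deoxynucleotide member rose (7 of 7, median 2.0), as did 4 of 5 folate members (median 1.28), 2 of 5 pyrimidine members (median 0.86) and 8 of 14 purine members (median 0.71), the last with Ampd1 and Ampd3 as the 2 that fell. The ranges of the 2 groups did not overlap for 21 members that were higher and 2 that were lower, against 22.7% and 22.3% of all genes. Scaling by library totals alone moved the median over all genes to -0.23 and left 18 members called higher and 2 lower, with 46.7% of all genes called in either direction.

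The Ag+Costim against Naive counts depended on single libraries and on lane. The total of 23 became 8, 14, 9 and 8 without Naive 1, 2, 3 and 4, and 15, 13 and 12 without Ag+Costim 1, 2 and 5. Of the deoxynucleotide members, Dck alone stayed called without Naive 1, 3 or 4. Naive libraries were run on lane 3 and Ag libraries on lane 2. Ag+Costim 1 to 3 were run on lane 2 and Ag+Costim 4 and 5 on lane 3. With lane as a term 3 members were called (Ampd1, Adss and Mthfd2), and within lane 3 alone 21. Over all genes, the share called in either direction was between 21.6% and 35.9% without 1 of those libraries, 5.43% with lane as a term and 34.7% within lane 3.

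**Figure D1:**
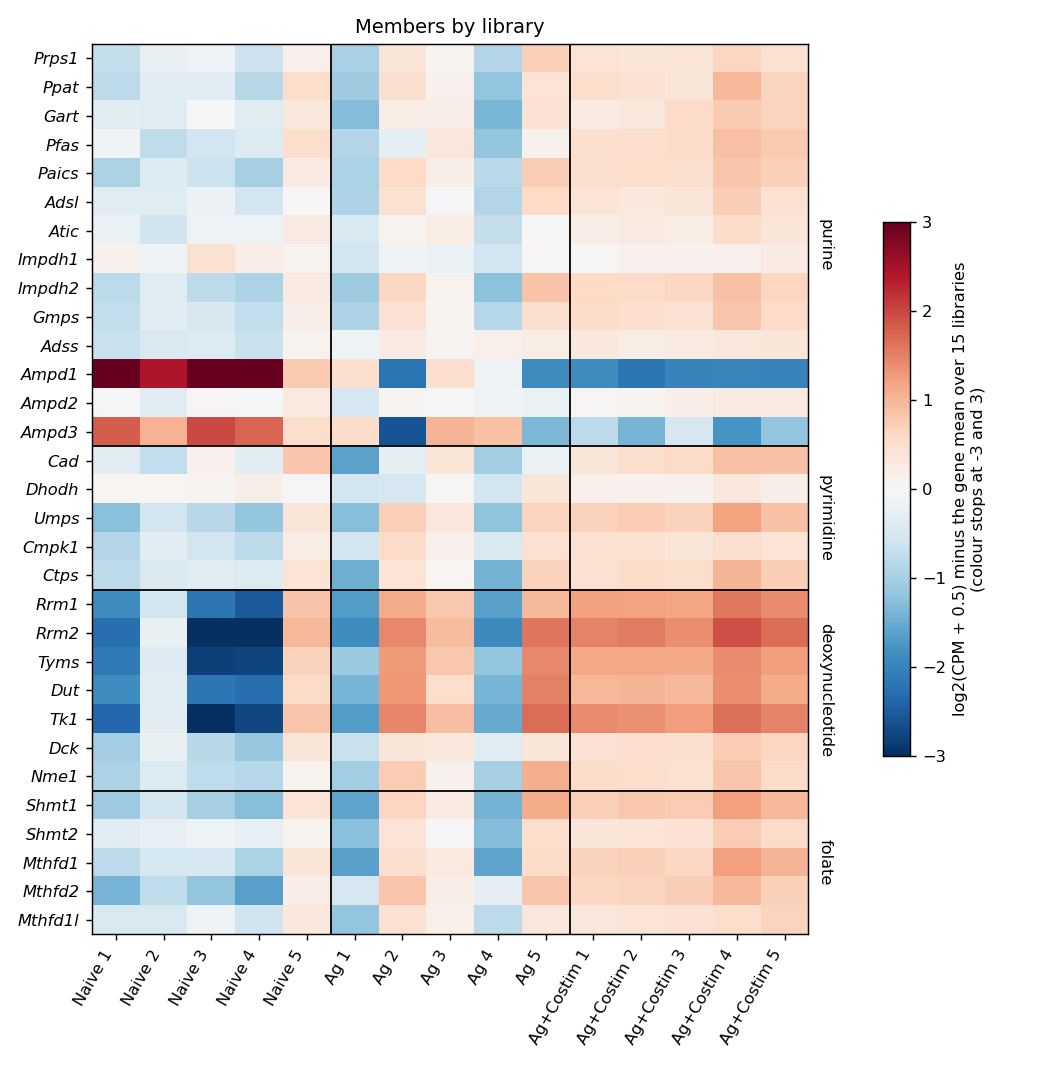
Each row is a member and each column a library. Colour gives log2(CPM + 0.5) minus the gene's mean over the 15 libraries, cut at -3 and 3, with steps separated by lines. The Ag+Costim columns are alike, Ag 1 and Ag 4 are paler or bluer than the other Ag columns, and Naive 5 is redder than the other Naive columns for 27 members, while Ampd1 and Ampd3 run the other way.

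Between Ag and Naive, only Adss and Ampd1 passed the test. Adss rose and Ampd1 fell, so that 1 of 31 members was called higher, against 3.05% of all genes, and 1 lower, against 3.66%. The groups did not overlap for Ampd1 alone, which was lower. Over all genes, 1.76% were higher without overlap and 2.09% lower. The members' median log2 fold change was 0.34, beside 0.08 over all genes, and 23 members had a positive value. It was 0.12 without Ag 5, 0.16 without Ag 2, 0.53 without Naive 5 and 0.84 without Ag 1, Ag 3 and Ag 4. The median turned to -0.23 when voom with sample quality weights was used, which gave Ag 2 and Ag 5 the lowest weights. The count of 2 members became 9 without Naive 5 and 1 without Naive 1, 2, 3 or 4 or without Ag 2 or Ag 3. Without Ag 3 and Naive 5 together it was 9, and without Ag 1, Ag 3 and Ag 4, the Ag libraries with the highest B cell sums (a choice made after seeing the data), it was 21. The share of all genes called in either direction was 21.5% without Naive 5, 22.9% without Ag 3 and Naive 5, and 54.7% without Ag 1, Ag 3 and Ag 4. It was 1.42% to 6.99% without 1 of the libraries whose removal left 1 member called. With lane as a term no member was called, and none of all 17366 genes. At an unadjusted p under 0.05 were 3 members, 400 genes that were higher and 885 that were lower. Ag and Naive libraries shared no lane, so the lane term rested on the Ag+Costim libraries alone. The log2 fold changes were then -3.39 for Ampd1 and 0.60 for Adss.

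Between Ag+Costim and Ag, edgeR called 0 members, against 0.0288% of all genes called higher and 0.00576% lower. At an unadjusted p under 0.05, 9 members were higher and 1 was lower, where 7.28% of all genes were higher and 19.5% lower. DESeq2 called 3 members higher and 1 lower, and voom with sample quality weights called 29 higher and 2 lower. DESeq2 called 14.6% of all genes in either direction and voom 64.5%. All but Ampd1 and Ampd3 had a positive log2 fold change, with a median of 0.55 against -0.10 over all genes. The median was 0.37 to 0.88 with single libraries left out and 0.10 without Ag 1, Ag 3 and Ag 4. The groups did not overlap for 4 members (Pfas, Rrm1, Dck and Mthfd1), all higher, while 4.23% of all genes were higher and 2.10% lower without overlap. Without Ag 2 the count was 9 members, without Ag 5 it was 4, and without Ag 3 and Naive 5 together it was 2. The shares of all genes called were then 14.8%, 19.7% and 5.73%. The 3 comparisons share libraries in pairs, so their counts are not independent.

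**Figure D2:**
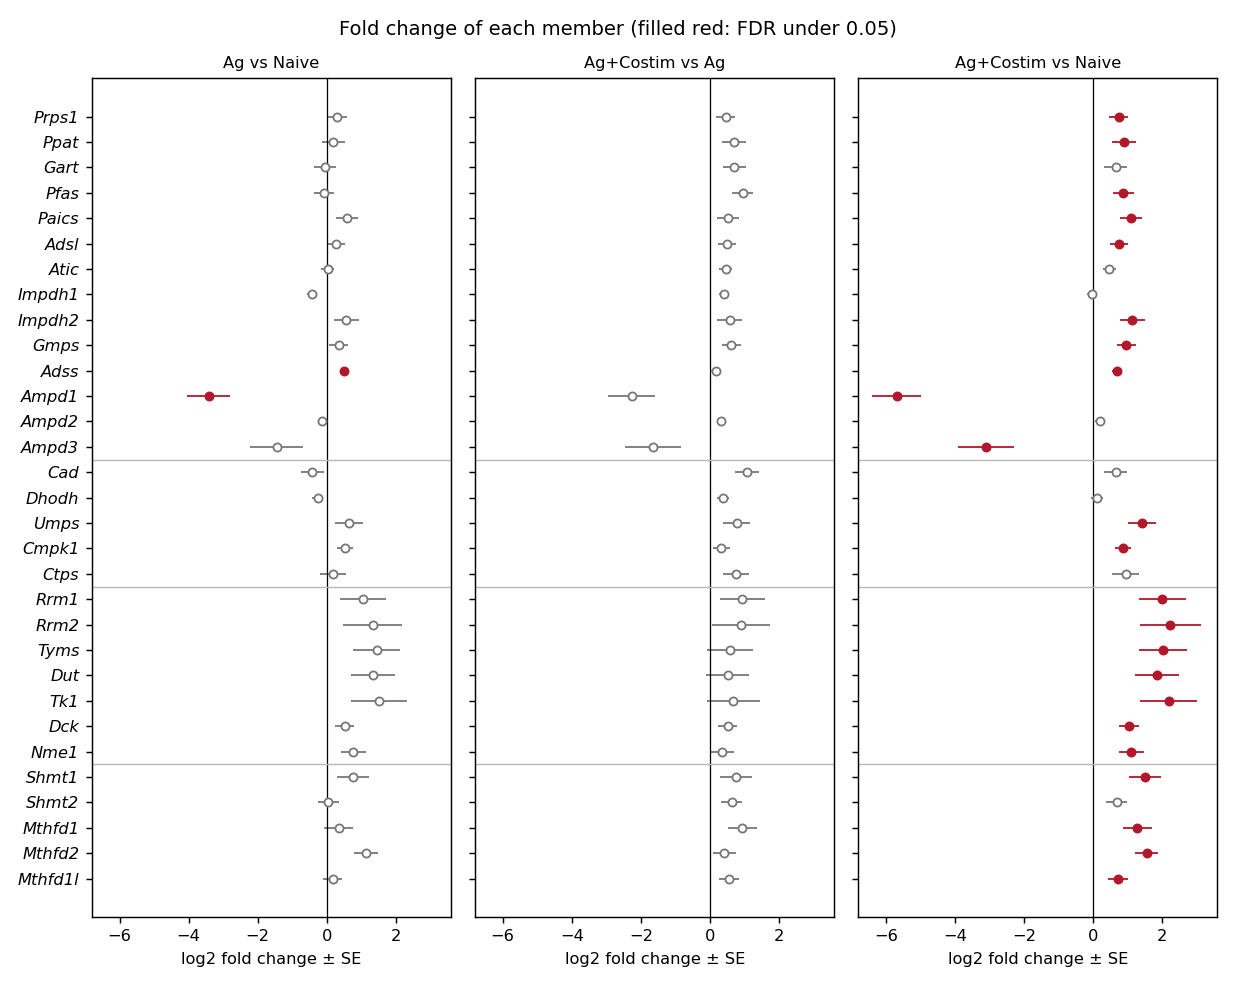
Points are log2 fold changes from the edgeR fit and bars their standard errors (SE), with the group named first minus the other. Filled red points passed an FDR of 0.05: 2 members in Ag vs Naive, 23 in Ag+Costim vs Naive and 0 in Ag+Costim vs Ag. Ampd1 and Ampd3 lie left of 0 in all 3 panels.

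The spread within a group was narrowest in Ag+Costim. The median coefficient of variation of the members over 5 libraries was 38.7% in Naive libraries, 49.6% in Ag and 11.2% in Ag+Costim, where the medians over all tested genes were 25.5%, 38.5% and 12%. It was smallest in Ag+Costim for 29 of 31 members, the exceptions being Dhodh and Ampd3. In 27 of 31 members Ag 1 and Ag 4 were the lowest pair of Ag libraries, and in 17 both lay below every Naive library. Naive 5 was the highest Naive library for 27 members and the lowest for 3 (Ampd1, Ampd3 and Dhodh). These library patterns were noticed in the data and carry no test.

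To set genes beside each other, levels were also taken per kilobase of transcript. On that scale Rrm2 led in Ag+Costim (615.4 ± 90.7 CPM per kb, SD, n = 5). Dut, Rrm1, Paics and Nme1 followed in Ag+Costim at 315.4 ± 36.5, 246.9 ± 29.3, 205.4 ± 24.6 and 184.2 ± 20.9 CPM per kb. Neighbours in that order overlapped in range from Dut to Nme1, while the lowest Rrm2 library (528.4) lay above the highest Dut library (344.5). In Naive cells Rrm2 had the highest mean (130.2 ± 163.5), which rested on Naive 5 (399.6), followed by Paics (96.9 ± 38.6). Without Naive 5, a choice made after seeing the data, Paics (80.9 ± 16.5), Nme1 (73.1 ± 11.6) and Shmt2 (66.5 ± 4.74) preceded Rrm2 (62.9 ± 73.6). Ampd1 and Ampd3 were last in Ag+Costim at 0.303 ± 0.12 and 0.232 ± 0.119 CPM per kb.

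Of the purine members that build the ring up to IMP, Prps1, Ppat, Pfas, Paics and Adsl rose in Ag+Costim over Naive, and Gart and Atic did not pass the test. Prps1 makes the activated ribose phosphate from which the ring is started. Its levels were 82, 115.6, 121.1, 86.9 and 149.0 CPM in Naive 1 to 5 and 68.5, 173.8, 141.6, 73.5 and 219.9 in Ag 1 to 5. In Ag+Costim 1 to 5 they were 179.8, 173.3, 174.9, 212.5 and 184.9, all above every Naive library, with a log2 fold change of 0.74 ± 0.28 (SE) and an edgeR FDR of 0.0464.

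Ppat, which commits ribose phosphate to the purine ring, and Paics, which carries out a pair of middle steps, lie head to head on chromosome 5. Ppat occupies 76913249 to 76951578 on the minus strand and Paics 76951307 to 76967509 on the plus strand, so their annotated bodies overlap by 272 bases at their 5′ ends. The RefSeq start sites lie 276 bases apart on GRCm38.p6, each within the other gene's body. The library kit does not mark strand, so reads in the overlap cannot be assigned to either gene with certainty. Their promoter windows (250 bases before to 50 after the start) are shown because the genes share this region, with matches to the letters CACGTG (E-box), CCAAT, or any of TTCCCGC (core letters of E2F sites), its variant TTCGCGC, its variant TTGCCGC and its variant TTGGCGC, on either strand, in capitals.

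Ppat (chr5:76951529-76951828, minus strand): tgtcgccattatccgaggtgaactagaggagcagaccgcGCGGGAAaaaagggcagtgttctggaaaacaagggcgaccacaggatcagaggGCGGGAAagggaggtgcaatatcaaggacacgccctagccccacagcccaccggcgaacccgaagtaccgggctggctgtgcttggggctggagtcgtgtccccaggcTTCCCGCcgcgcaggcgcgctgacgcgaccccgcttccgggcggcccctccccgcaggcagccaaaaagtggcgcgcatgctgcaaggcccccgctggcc

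Paics (chr5:76951052-76951351, plus strand): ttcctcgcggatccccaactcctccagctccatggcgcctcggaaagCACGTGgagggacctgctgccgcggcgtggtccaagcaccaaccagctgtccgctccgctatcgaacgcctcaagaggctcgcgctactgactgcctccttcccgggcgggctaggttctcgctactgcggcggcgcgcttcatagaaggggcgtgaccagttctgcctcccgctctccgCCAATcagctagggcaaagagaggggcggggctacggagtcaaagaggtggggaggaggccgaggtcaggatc

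The Ppat window held matches to the E2F letters 211, 158 and 50 bases before its start and none to the other letters. The Paics window held CACGTG 203 bases and CCAAT 23 bases before its start. Ppat measured 56, 75.7, 75.9, 53.9 and 139.2 CPM in Naive 1 to 5, 45.8, 135.7, 105.8, 42.5 and 127.7 in Ag and 138.9, 133.1, 124.8, 191.5 and 152.4 in Ag+Costim. Paics measured 166.7, 243.1, 206.2, 163.0 and 382.1 CPM in Naive libraries, 167.5, 490.4, 363.9, 184.9 and 538.4 in Ag and 456.1, 464.9, 454.5, 578.9 and 530.5 in Ag+Costim. Both were low in Naive 1 to 4, Ag 1 and Ag 4, and Paics had no overlap between Ag+Costim and Naive whereas Ppat did. In that comparison Paics rose by 1.10 ± 0.32 on the log2 scale (edgeR FDR 0.0181) and Ppat by 0.89 ± 0.34 (edgeR FDR 0.0468). The Paics call was lost without Naive 1 (edgeR FDR 0.0523) or Naive 4 (0.0525) and with lane as a term (0.0623).

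Gart and Pfas act between those steps. Gart, an enzyme of 3 activities in the ring's assembly, was at 123.9, 119.9, 155.9, 120.2 and 195.1 CPM in Naive and 62.4, 180.2, 177.9, 59.7 and 208.7 in Ag, with Ag 1 and Ag 4 below every Naive library. Its Ag+Costim levels were 185.2, 195.3, 231.4, 266.3 and 246.2, and edgeR and DESeq2 did not call it in any comparison (edgeR FDR 0.1 in Ag+Costim vs Naive). Voom with sample quality weights called it lower in Ag vs Naive (log2 -0.86, voom FDR 0.0143). It called Gart higher in Ag+Costim vs Ag (1.63, voom FDR 3.3e-05) and in Ag+Costim vs Naive (0.76, voom FDR 0.000569). Pfas was the least abundant of the ring-building members at 17.4, 10.9, 12.5, 14.2 and 27.7 CPM in Naive libraries, 10.1, 15.5, 24.2, 8.09 and 20.7 in Ag and 26.5, 27.1, 28.2, 35.9 and 32.9 in Ag+Costim. It rose in Ag+Costim over Naive (log2 0.87 ± 0.30, edgeR FDR 0.0322), where Naive 5 overlapped the Ag+Costim range. Against Ag the groups did not overlap, with a log2 difference of 0.95 ± 0.30 and an edgeR FDR of 0.0876, and DESeq2 gave an FDR of 0.0167.

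Adsl and Atic close the route to IMP. Adsl, which releases fumarate at separate points of purine synthesis, had group means of 124.6, 148.9 and 209.0 CPM in Naive, Ag and Ag+Costim, and rose in Ag+Costim over Naive (log2 0.75 ± 0.26, edgeR FDR 0.0339). Atic, which forms IMP, had means of 53.4, 54.2 and 74.2 CPM and missed the threshold (log2 0.47 ± 0.19, edgeR FDR 0.0517).

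At the branch from IMP, Adss rose in both antigen groups against Naive. Adss, adenylosuccinate synthase on the way to AMP, was at 100.1, 115.0, 119.3, 100.1 and 171.3 CPM in Naive 1 to 5 and 142.2, 189.1, 167.9, 176.8 and 184.5 in Ag 1 to 5. Its Ag+Costim levels were 198.4, 183.4, 189.8, 200.7 and 205.1. Naive 5 alone reached into the Ag range, and every Ag+Costim library was above every Naive library. It rose by 0.51 ± 0.14 on the log2 scale in Ag (edgeR FDR 0.045) and by 0.69 ± 0.14 in Ag+Costim (edgeR FDR 0.0049), both against Naive. Between Ag+Costim and Ag the log2 difference was 0.18 ± 0.14 (edgeR FDR 0.407). The Ag call was lost without Naive 1, 2, 3 or 4, without Ag 2, 3, 4 or 5, without the filter on low counts, with lane as a term and when only the 10 libraries compared were fitted, at edgeR FDRs from 0.0529 to 0.626. The Ag+Costim call was kept in all 19 alternatives run (FDR up to 0.0473).

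On the way to GMP, Impdh2 and Gmps rose and Impdh1 did not pass the test. Gmps, the last enzyme to GMP, measured 101.1, 135.8, 120.4, 101.4 and 189.0 CPM in Naive libraries, 88.7, 227.9, 177.1, 93.2 and 233.6 in Ag and 246.7, 237.3, 228.7, 298.8 and 252.2 in Ag+Costim, again low in Ag 1 and Ag 4. Its rise in Ag+Costim over Naive was 0.96 ± 0.27 on the log2 scale (edgeR FDR 0.0157). Impdh1 and Impdh2 encode IMP dehydrogenase, the rate-limiting enzyme of GMP synthesis. Impdh2 had means of 69.7 ± 26.2, 102.6 ± 60.2 and 152.8 ± 13.8 CPM (SD, n = 5) in Naive, Ag and Ag+Costim, and rose in Ag+Costim over Naive (log2 1.13 ± 0.36, edgeR FDR 0.0251). A processed pseudogene, Impdh2-ps, was counted at means of 44.6 ± 16.9, 65.8 ± 38 and 100.9 ± 8.93 CPM in the same groups, so reads may have been split between the copies and the level of Impdh2 is uncertain.

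Impdh1 was at 122.8, 101.8, 152.5, 127.1 and 119.4 CPM in Naive 1 to 5, 74.6, 103.7, 96.9, 74.1 and 114.7 in Ag and 113.9, 121.9, 122.7, 121.7 and 132.5 in Ag+Costim. The Ag+Costim range lay within the Naive range (log2 -0.03 ± 0.14, edgeR FDR 0.886). Ag had the lowest mean, at -0.43 ± 0.14 against Naive (edgeR FDR 0.0706, DESeq2 FDR 0.00832), and Ag+Costim differed from Ag by 0.40 ± 0.14 (edgeR FDR 0.0984, DESeq2 FDR 0.0281).

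**Figure D3:**
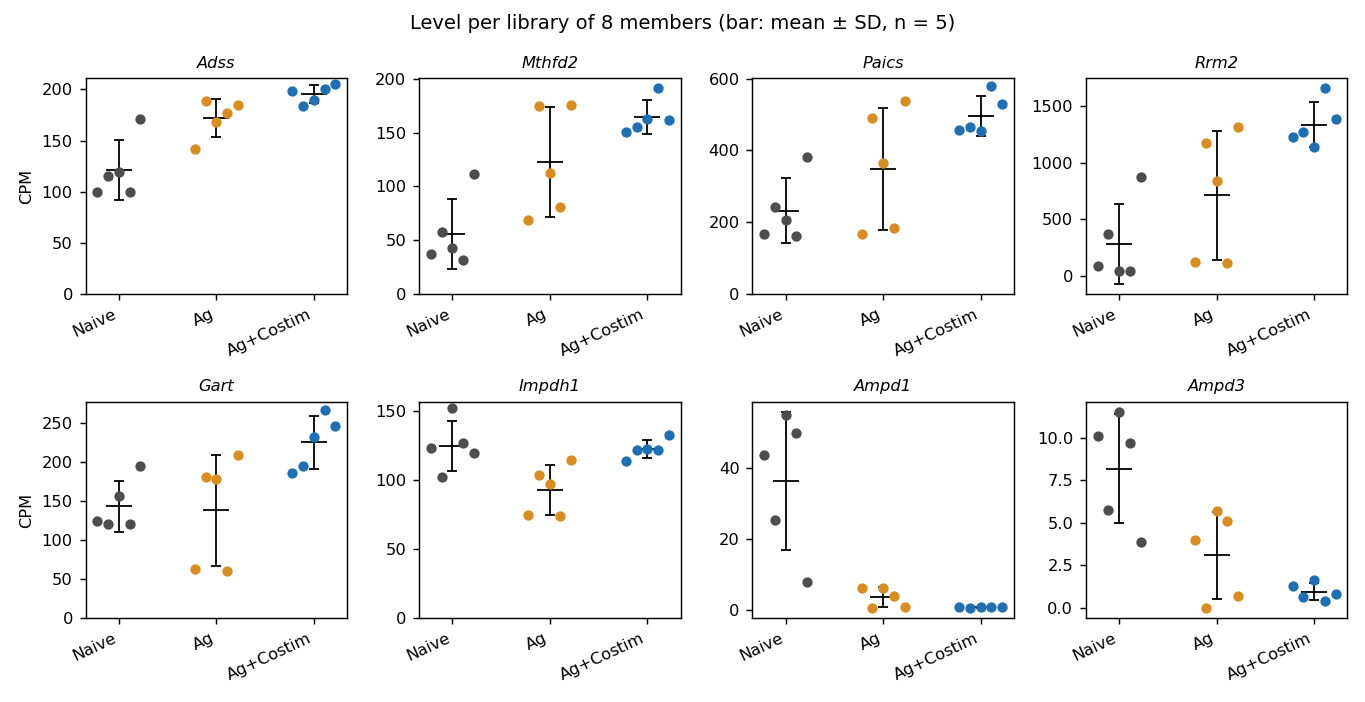
Each point is a library, with CPM on a linear axis and the mean ± SD of 5 libraries as a bar. Adss, Mthfd2, Paics and Rrm2 have their highest mean in Ag+Costim, Gart and Impdh1 have Ag means below the Naive means, and Ampd1 and Ampd3 approach 0 in Ag+Costim.

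The AMP deaminases, which return AMP to IMP, were the exception among purine members, since Ampd1 and Ampd3 fell while Ampd2 did not pass the test. Ampd1 (chr3:103074014-103099720), the form best known from skeletal muscle, was at 43.7, 25.4, 55.2, 50 and 7.84 CPM in Naive 1 to 5. In Ag 1 to 5 it was at 6.2, 0.551, 6.32, 3.87 and 0.814 CPM and in Ag+Costim at 0.795, 0.569, 0.703, 0.714 and 0.695 CPM. All Ag and Ag+Costim libraries lay below all Naive libraries, and the lowest Naive library was Naive 5. The counts behind these levels were 118 to 1479 in Naive libraries, 8 to 72 in Ag and 7 to 12 in Ag+Costim.

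Ampd1 fell by 3.42 ± 0.63 on the log2 scale from Naive to Ag (10.7-fold, edgeR FDR 0.0118) and fell by 5.69 ± 0.72 from Naive to Ag+Costim (51.7-fold, edgeR FDR 0.001). The second call held in all 19 alternatives run (FDR up to 0.0334). The first was lost with lane as a term (edgeR FDR 0.626) and when only the 10 libraries compared were fitted (0.12). Between Ag+Costim and Ag the log2 difference was -2.27 ± 0.68 (edgeR FDR 0.0832, DESeq2 FDR 0.0062), and Ag 2 and Ag 5 were close to the Ag+Costim range. It passed without Ag 2 (edgeR FDR 0.0311) or Ag 5 (0.0254). Without Ag 1, Ag 3 and Ag 4, which also carried the highest B cell sums among Ag libraries, that difference was 0.02.

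Ampd3 (chr7:110768206-110812405), known from red cells and other tissues, measured 10.1, 5.76, 11.5, 9.66 and 3.86 CPM in Naive libraries, 3.96, 0, 5.66, 5.08 and 0.689 in Ag and 1.26, 0.65, 1.62, 0.389 and 0.834 in Ag+Costim. Ag 2 had no count, which allows up to 0.207 CPM (3 counts). Ag 2 and Ag 5 were again close to Ag+Costim, and the other Ag libraries were within the Naive range. It fell by 3.10 ± 0.81 on the log2 scale in Ag+Costim against Naive (8.55-fold, edgeR FDR 0.0127), and was not called in Ag (-1.45 ± 0.76, edgeR FDR 0.215). Rnf141 overlaps Ampd3 over 11974 bases on the other strand, at 7.32 to 17 CPM. Ampd2, the broadly expressed form, had means of 44.3, 40.5 and 50.7 CPM in Naive, Ag and Ag+Costim (edgeR FDR 0.22 in Ag+Costim vs Naive).

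Among pyrimidine members, Umps and Cmpk1 rose in Ag+Costim over Naive, and the ring-making enzymes Cad and Dhodh were not called by edgeR or DESeq2 (voom FDR 0.00033 for Cad and 0.399 for Dhodh). Cad, the enzyme that makes dihydroorotate from bicarbonate, glutamine and aspartate, was at 72.3, 55, 100.5, 73.2 and 165.2 CPM in Naive libraries, 29.8, 75.2, 118.9, 44.5 and 80.4 in Ag and 118.8, 132.2, 138.0, 171.7 and 170.0 in Ag+Costim. Naive 5 lay among the highest libraries and Ag 1 and Ag 4 were the lowest of all 15. Its log2 differences were 1.07 ± 0.34 against Ag (edgeR FDR 0.0889, DESeq2 FDR 0.0159) and 0.65 ± 0.34 against Naive (edgeR FDR 0.126).

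Dhodh, the mitochondrial enzyme that oxidizes dihydroorotate, had means of 39.8, 33.1 and 43 CPM in Naive, Ag and Ag+Costim and edgeR FDRs from 0.164 to 0.584. Umps, which completes UMP, was at 45.7, 73.8, 60.6, 48.5 and 140.1 CPM in Naive libraries, 44.8, 178.0, 137.6, 46.5 and 172.0 in Ag and 176.6, 183.7, 175.1, 253.1 and 200.3 in Ag+Costim. The lowest Ag+Costim library lay above Naive 5, the highest Naive library, and Ag 1 and Ag 4 were close to the lowest Naive library. The rise over Naive was 1.42 ± 0.41 on the log2 scale (edgeR FDR 0.017).

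Cmpk1, the kinase of UMP and CMP, was at 72.9, 106.1, 91.5, 77.8 and 158.7 CPM in Naive and 90.7, 200.8, 150.5, 99.2 and 187.3 in Ag. Ag+Costim levels were 187.0, 186.3, 173.8, 189.9 and 181.3 CPM, the tightest group of any member (coefficient of variation 3.44%). It rose by 0.86 ± 0.24 on the log2 scale in Ag+Costim over Naive (edgeR FDR 0.0159) and was at 0.52 ± 0.24 in Ag over Naive (edgeR FDR 0.168). Ctps, which aminates UTP to CTP, had means of 46.2, 52.3 and 88.8 CPM, with no overlap between Ag+Costim and Naive but an edgeR FDR of 0.0547.

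The deoxynucleotide members all rose in Ag+Costim over Naive, and none passed edgeR's test in Ag over Naive or between Ag+Costim and Ag. Their calls depended on single Naive libraries and on lane. Without Naive 1, 3 or 4, Dck alone kept its call (edgeR FDR 0.0422, 0.0375 and 0.0413). With lane as a term no deoxynucleotide member was called (edgeR FDR 0.0587 for Dck). Rrm1 and Rrm2 encode the subunits of ribonucleotide reductase, Rrm2 being the one whose level is known to peak in S phase. Their promoter windows are shown because they encode the 2 parts of 1 enzyme and moved together, with the same letters in capitals.

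Rrm1 (chr7:102441445-102441744, plus strand): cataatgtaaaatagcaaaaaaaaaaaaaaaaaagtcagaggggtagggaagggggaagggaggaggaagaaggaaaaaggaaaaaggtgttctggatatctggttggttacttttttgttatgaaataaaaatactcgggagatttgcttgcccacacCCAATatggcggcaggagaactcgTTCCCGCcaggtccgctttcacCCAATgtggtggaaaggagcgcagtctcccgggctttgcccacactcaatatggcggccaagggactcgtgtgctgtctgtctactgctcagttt

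Rrm2 (chr12:24708004-24708303, plus strand): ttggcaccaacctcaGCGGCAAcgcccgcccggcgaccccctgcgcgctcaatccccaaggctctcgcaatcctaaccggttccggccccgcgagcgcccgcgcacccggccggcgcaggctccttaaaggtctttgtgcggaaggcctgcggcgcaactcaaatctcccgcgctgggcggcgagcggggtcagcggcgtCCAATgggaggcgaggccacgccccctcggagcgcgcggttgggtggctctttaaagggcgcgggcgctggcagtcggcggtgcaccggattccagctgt

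The Rrm1 window held CCAAT 91 and 45 bases and E2F letters 67 bases before its start, and the Rrm2 window held CCAAT 50 bases and E2F letters 235 bases before its start. Rrm1 measured 105.7, 265.8, 86.8, 67.9 and 707.0 CPM in Naive libraries, 122.3, 850.9, 689.0, 125.5 and 769.6 in Ag and 909.8, 907.5, 892.8, 1160.4 and 1049.6 in Ag+Costim. Rrm2 measured 89.4, 370.2, 41.7, 39.8 and 868.6 CPM in Naive libraries, 119.1, 1174.2, 835.6, 115.4 and 1309.5 in Ag and 1222.3, 1266.5, 1141.3, 1655.7 and 1386.6 in Ag+Costim. For both genes Naive 5, Ag 2, Ag 3 and Ag 5 were high, Naive 2 was intermediate, and Naive 1, 3 and 4 with Ag 1 and Ag 4 were low, the same split of high and low libraries as for the summed proliferation genes. The part of proliferation in these values was not tested.

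In Ag+Costim over Naive, Rrm1 rose by 2.0 ± 0.68 (edgeR FDR 0.0307) and Rrm2 by 2.24 ± 0.87 on the log2 scale (edgeR FDR 0.0487). Tyms, which makes thymidylate, rose by 2.03 ± 0.69 (edgeR FDR 0.0304), Dut, which clears dUTP, by 1.85 ± 0.64 (edgeR FDR 0.0323) and Tk1, the S phase thymidine kinase, by 2.19 ± 0.82 (edgeR FDR 0.0427). For these 5 genes every Ag+Costim library exceeded every Naive library. Tyms ranged from 17.9 to 205.7 CPM in Naive libraries, from 57.1 to 349.3 in Ag and from 281.5 to 342.5 in Ag+Costim. A processed copy, Tyms-ps, was at 0.903 to 13.6, 3.44 to 25.8 and 18.4 to 23.3 CPM in these groups. Tk1 ranged from 5.41 to 121.4 CPM in Naive libraries, from 20.9 to 216.1 in Ag and from 161.8 to 215.0 in Ag+Costim, and Gm20708 overlaps it on the other strand over 10567 bases at 3.71 to 17.6 CPM.

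Dut was at 54.9, 156.9, 44.5, 41.3 and 299.0 CPM in Naive libraries, 76.4, 492.8, 291.2, 75.8 and 573.8 in Ag and 400.3, 404.4, 395.1, 524.8 and 432.7 in Ag+Costim. Between Ag+Costim and Ag, the log2 differences of the S phase genes Rrm1, Rrm2, Tyms, Dut and Tk1 were between 0.51 and 0.94 with SEs from 0.62 to 0.84, and Ag 2 and Ag 5 exceeded the lowest Ag+Costim library for all of them except Rrm1.

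Dck and Nme1 moved less. Dck, which salvages deoxycytidine and other deoxynucleosides, was at 88.4, 155.9, 102.8, 83.1 and 233.8 CPM in Naive libraries, 115.0, 236.1, 226.3, 141.2 and 234.6 in Ag and 247.7, 259.8, 255.8, 310.9 and 286.8 in Ag+Costim. Its Ag+Costim range lay above both other groups, the rise over Naive being 1.04 ± 0.28 (edgeR FDR 0.0141) and the difference from Ag 0.51 ± 0.28 (edgeR FDR 0.249). Nme1, a nucleoside diphosphate kinase, had means of 253.1, 429.5 and 547.0 CPM and rose in Ag+Costim over Naive (log2 1.11 ± 0.36, edgeR FDR 0.0268).

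**Figure D4:**
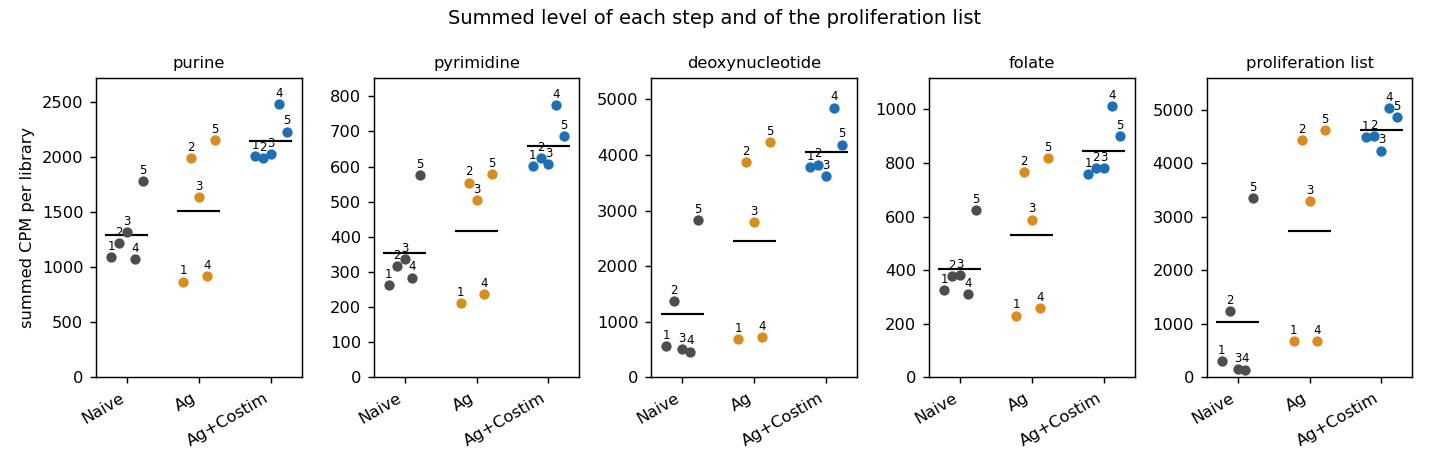
Points are libraries, numbered within each group, with the summed CPM of the members of a step or of the 10 proliferation genes on a linear axis from 0 and the group mean as a line. In every panel Ag 1 and Ag 4 are the lowest Ag libraries and Naive 5 the highest Naive library. The deoxynucleotide sums are 462.4 to 2825.3 CPM in Naive libraries, 688.6 to 4229.2 in Ag and 3623.4 to 4854.7 in Ag+Costim.

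Summed over its members, the folate step ran from 311.4 to 624.4 CPM in Naive libraries, from 230.8 to 817.0 in Ag and from 758.6 to 1013.3 in Ag+Costim. Mthfd2, the mitochondrial methylene-tetrahydrofolate dehydrogenase known for high levels in embryonic and proliferating cells, led this step by p. It measured 37, 57.5, 42.6, 31.3 and 111.9 CPM in Naive libraries, 68.7, 175.2, 112.6, 80.8 and 176.0 in Ag and 150.9, 155.0, 162.8, 192.0 and 162.2 in Ag+Costim. Ag 1 and Ag 4 lay above Naive 1 to 4 for this gene, unlike for most members, and only Naive 5 overlapped the Ag range. Mthfd2 rose by 1.55 ± 0.34 on the log2 scale in Ag+Costim over Naive (edgeR FDR 0.00663), a call kept in all 19 alternatives run (FDR up to 0.0489). In Ag over Naive the difference was 1.13 ± 0.34 with an edgeR FDR of 0.0583 and a DESeq2 FDR of 0.0103. The edgeR FDR of that difference was 0.0035 without Naive 5, 0.0372 without Ag 1 and 0.0433 without Ag 4. Without any other single library it was between 0.0699 (Ag 3) and 0.16 (Naive 1). With lane as a term it was 0.626, and with only the 10 libraries compared 0.224.

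Shmt1, the cytosolic serine hydroxymethyltransferase, was at 21.5, 31.4, 22.9, 18.8 and 61.4 CPM in Naive libraries, 15.2, 73.5, 55.3, 17.2 and 101.3 in Ag and 77, 81.9, 79.3, 109.1 and 93.2 in Ag+Costim. It rose by 1.5 ± 0.47 in Ag+Costim over Naive (edgeR FDR 0.024), a call lost without Naive 1, 3 or 4 and with lane as a term (edgeR FDR 0.0568 to 0.0685). Shmt2, its mitochondrial counterpart, was at 126.5, 134.3, 145.6, 135.4 and 171.4 CPM in Naive libraries, 66.6, 208.2, 161.6, 64.9 and 232.8 in Ag and 206.5, 209.4, 214.8, 271.4 and 237.4 in Ag+Costim. The Ag+Costim libraries all exceeded the Naive libraries, Ag 1 and Ag 4 were the lowest of all 15, and the edgeR FDR was 0.0786.

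Mthfd1, the cytosolic enzyme of 3 folate activities, ranged from 68.2 to 171.5 CPM in Naive libraries, from 42.4 to 195.8 in Ag and from 205.4 to 314.2 in Ag+Costim. It rose over Naive by 1.28 ± 0.42 (edgeR FDR 0.0257) and did not overlap with Ag, where the difference was 0.94 ± 0.41 (edgeR FDR 0.163). Mthfd1l, which releases formate from mitochondrial folate, had means of 74.1, 83.2 and 122.0 CPM and rose over Naive by 0.72 ± 0.28 (edgeR FDR 0.0488).

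The balance between related enzymes was compared within libraries, as a percentage of counts per transcript length, which does not depend on library scaling. Of 18 tests (6 shares in 3 comparisons), 6 had a Benjamini-Hochberg adjusted p under 0.05 by an exact two-sided permutation test, whose smallest p with 5 against 5 libraries is 0.00794. Impdh2 made up 44.1% ± 9.76 of Impdh1 and Impdh2 in Naive libraries, 55.8% ± 11 in Ag and 61% ± 3.38 in Ag+Costim (SD, n = 5), and its share rose by 16.8 percentage points from Naive to Ag+Costim (exact permutation adjusted p = 0.0286). This share carries the same uncertainty about Impdh2-ps. Shmt2 made up 85.4% ± 4.84 of Shmt1 and Shmt2 in Naive libraries, 77.6% ± 3.01 in Ag and 76% ± 0.671 in Ag+Costim, and its share fell by 9.38 points (exact permutation adjusted p = 0.0286).

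Mthfd2's share of Mthfd1, Mthfd1l and Mthfd2 was 35.3%, 39.7%, 32.3%, 35.6% and 40.2% in Naive 1 to 5. In Ag it was 61.2%, 48.2%, 42.2%, 61.5% and 48.2%, highest in Ag 1 and Ag 4, and in Ag+Costim 43.8%, 43.4%, 45.6%, 41.7% and 39%. Every Ag library lay above every Naive library, a rise of 15.7 points (exact permutation adjusted p = 0.0286). From Ag to Ag+Costim the difference was -9.59 points (exact permutation adjusted p = 0.0635), and from Naive to Ag+Costim 6.06 points (exact permutation adjusted p = 0.0612).

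Ampd1 made up 47.4% ± 19.7 of the AMP deaminases in Naive libraries, 8.37% ± 6.4 in Ag and 1.95% ± 0.751 in Ag+Costim, with Naive 5 at 15% and the other Naive libraries between 43.7% and 62.8%. Its share fell by 39 points from Naive to Ag (exact permutation adjusted p = 0.0476) and by 45.4 points from Naive to Ag+Costim (exact permutation adjusted p = 0.0286). Ampd3's share fell from 7.07% ± 1.08 in Naive to 1.51% ± 0.802 in Ag+Costim (exact permutation adjusted p = 0.0286) and was 6.33% ± 5.4 in Ag. Rrm2's share of Rrm1 and Rrm2 was 59.8% ± 11, 68.7% ± 5.42 and 71.3% ± 0.86 in Naive, Ag and Ag+Costim, and no difference passed (exact permutation adjusted p from 0.0714 to 0.357). Leaving out Naive 1, 3 or 4 brought the number of tests passed from 6 to 0, with 4 against 5 libraries in the tests concerned. It was 4 without Ag 2, 4 or 5. Fewer libraries raise the smallest p the test can give. Without Naive 1, 3 or 4 the Impdh2 difference from Naive to Ag+Costim was 15.9, 14.4 and 15 points (exact permutation adjusted p = 0.0571 each). These losses therefore cannot decide how far the shares rest on single Naive libraries. Within one lane the number passed was 0, where the smallest p is 0.0357 for 3 against 5 libraries and 0.0952 for 2 against 5. After adjustment over these 12 tests no p could fall under 0.05, so this setting could not decide how the shares depend on lane.

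**Figure D5:**
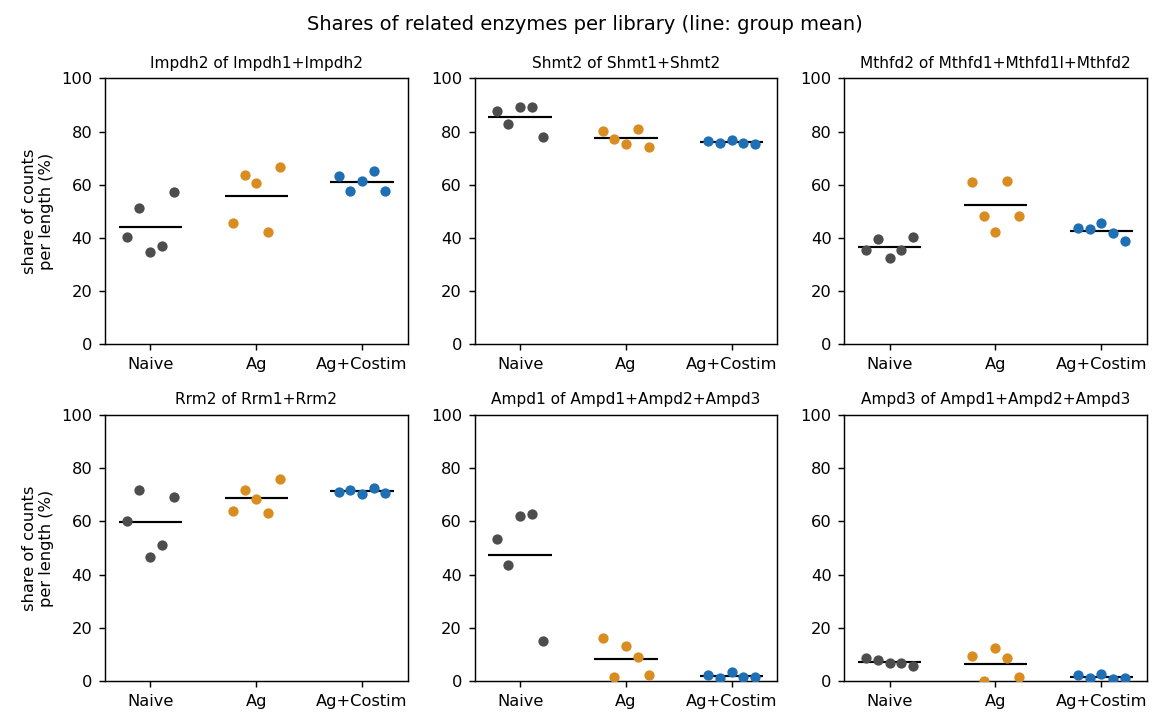
Points are libraries and lines group means, with the share of counts per transcript length in percent on an axis from 0 to 100. The Ag+Costim libraries are close together in all 6 panels, Mthfd2 is highest in Ag 1 and Ag 4, and Ampd1 drops from Naive to the other groups, with Naive 5 at 15%.

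The transcript table was read for which annotated transcript types carried the members' counts, with no test. In 19 of 31 members at least 90% of counts fell in protein-coding transcripts in every library with a count. Atic, whose most counted other transcript was the retained-intron form Atic-205, had 42% to 86.8% in protein-coding transcripts in Naive libraries, 17.2% to 83.6% in Ag and 89.5% to 93.6% in Ag+Costim. Adsl had 53.5% to 99.3%, 60.4% to 99.4% and 94.5% to 99.1%. In Tyms (8.12% to 57.3%) and Dhodh (2.61% to 94.1%) the percentage varied widely over all libraries, so the gene totals of these members mix transcript types. With single-end reads, estimated splits between transcripts of a gene are uncertain.

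Promoter windows from RefSeq (GRCm38.p6) were found for 28 of 31 members, 34 windows in all, since some genes have several starts. CACGTG was in 20.6% of the members' windows and in 7.15% of all 32851 windows of this length. The E2F letters were in 32.4% of the members' windows and in 9.57% of all, and CCAAT in 35.3% and 37.4%. The E2F letters were found for 11 members (Adss, Atic, Cad, Ctps, Impdh2, Mthfd1, Ppat, Prps1, Rrm1, Rrm2 and Shmt1), of which edgeR did not call Atic, Cad and Ctps in Ag+Costim over Naive, while DESeq2 called Atic and Ctps and voom called all 3. CACGTG was found for 6 members, including Ampd3, which fell. TTGGCGC on one strand can overlap CCAAT on the other, so a stretch may count for both. A match is a description of letters and not a binding site.

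Other genes of these pathways, listed with earlier results known, were read in the same fits. Of 71 such genes 65 were tested. In Ag+Costim over Naive 26 rose and 9 fell, with a median log2 fold change of 0.32. Over all genes tested, 21.0% were called higher and 23.6% lower. By list, 9 purine salvage genes rose and 1 fell of 19 tested, 2 rose and 2 fell of 6 in pyrimidine salvage, 3 rose and 3 fell of 12 other genes of deoxynucleotide supply, 11 rose and 2 fell of 24 other folate, serine and methyl cycle genes, and 1 rose and 1 fell of 4 nucleoside transporters. The 3 of smallest p were Slc29a1, an equilibrative nucleoside transporter (log2 1.25 ± 0.22, edgeR FDR 0.00315), Mthfs, which returns 5-formyl-tetrahydrofolate to use (0.78 ± 0.15, edgeR FDR 0.0037), and Adk, adenosine kinase (0.85 ± 0.16, edgeR FDR 0.00376).

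The same 3 genes had the smallest p in Ag over Naive, where 5 of the 65 rose (Adk, Gldc, Mthfs, Nme3 and Slc29a1) and 1 fell. Over all genes, 3.05% were called higher and 3.66% lower in that comparison. Mthfs was at 16.1 to 25.8 CPM in Naive libraries, 34 to 52.1 in Ag and 33.2 to 37.4 in Ag+Costim, with no overlap between Naive and the other groups. Its log2 fold change in Ag was 0.96 ± 0.15 (edgeR FDR 0.00614), that of Adk 0.84 ± 0.16 (edgeR FDR 0.013) and that of Slc29a1 1.09 ± 0.22 (edgeR FDR 0.0152). For Mthfs and Slc29a1 every Ag library lay above every Naive library, unlike for the 17 members counted earlier in which Ag 1 and Ag 4 lay below. For Adk the lowest Ag library (125.7 CPM) was just below the highest Naive library (126.1 CPM). Between Ag+Costim and Ag, edgeR called 0 of the 65, with 18 at an unadjusted p under 0.05 in either direction. Over all genes, 7.28% were higher and 19.5% lower at that unadjusted p. The 3 of smallest p were Mat2a, the S-adenosylmethionine synthetase (log2 0.52 ± 0.14, edgeR FDR 0.0807), Nme3 (-1.12 ± 0.36, edgeR FDR 0.0906) and Dguok, a mitochondrial deoxyguanosine kinase (-0.64 ± 0.21, edgeR FDR 0.0936).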

How the data were processed

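RNA of 15 OT-I libraries was amplified with SMART-Seq v4, made into libraries with Nextera XT and sequenced as single-end reads, per the study's methods. Per the labels' processing notes, the authors aligned reads to mm10 with HISAT2 2.1.0 and handled them with SAMtools 1.9. The deposited gene and transcript tables hold estimated counts that the authors made with StringTie 2.1.0, written as whole numbers and not normalized. The deposited sample sheet gives each library's count of sequenced reads and the percentage of reads aligned and in features, as the authors computed them. The annotation release was not given in the sources used here. The deposited FPKM table was not used.

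Entries of the gene table were matched by Ensembl gene identifier to GENCODE M21 (GRCm38), which covered 55536 of 81881 entries. Entries named by a number only (26248, holding 0.0818% of counts) were left out, as were 97 that matched no identifier and held 0 counts. Total counts ran from 4865952 to 25280667 per library. No pair of libraries agreed within sampling noise (lowest chi-square per degree of freedom 5.62). No column of another sample was present.

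Genes passing edgeR's filterByExpr were fitted with edgeR 4.0.16 (TMM, robust quasi-likelihood, 15 libraries, group only) in R 4.3.3, and p-values were adjusted by the Benjamini-Hochberg method over all 17366 genes tested. The fit was tested on simulated counts with the same spread in all groups, which does not cover the unequal spread between the real groups. The standard error is the log2 fold change divided by the square root of F. DESeq2 1.42.0 and voom with sample quality weights (limma 3.58.1) served as alternatives, with other scaling, filters, lane, pairing and left-out libraries. Shares of related enzymes used counts per transcript length and exact permutation tests. Called members are followed through the alternatives by the 10 smallest p in a comparison, or the 5 smallest where fewer than 5 were called, and the 3 other pathway genes of smallest p are named. Members and lists were chosen with earlier results of these data known. All Ag libraries were on lane 2 and all Naive libraries on lane 3, so lane and group cannot be told apart for Ag against Naive. Counting error limits the members with few counts, Ampd1 and Ampd3.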

Additional observations from a re-analysis of the deposited data

Results flagged for a closer look

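In groups of 5 libraries, a library was marked when its gap to the nearest other, divided by the group's range, exceeded Dixon's critical value for 5 samples. Of 93 groups (31 members in 3 groups) 8 were marked, where chance marks about 1 in 20, or 4.65. Naive 5 was the library marked in 4 of them, at 139.2 CPM of Ppat against 53.9 to 75.9 in the other Naive libraries, 171.3 CPM of Adss against 100.1 to 119.3, 73.9 CPM of Ctps against 31.7 to 42.6 and 171.5 CPM of Mthfd1 against 68.2 to 92.7. Naive 5 also had the highest proliferation and myeloid sums of the Naive libraries. Ag+Costim 4 was marked in the other 4, at 176.9 CPM of Impdh2 against 143.9 to 150.5, 47.4 CPM of Dhodh against 41.2 to 42.9, 524.8 CPM of Dut against 395.1 to 432.7 and 645.4 CPM of Nme1 against 495.0 to 536.8. It had the highest proliferation sum of its group, 5029.1 CPM. Ag+Costim 4 and 5 were run on lane 3 and the other Ag+Costim libraries on lane 2. Summed over all members they had 9119.1 and 8004.6 CPM, against 7032.7 to 7221.0 CPM in Ag+Costim 1 to 3. The part of lane in these values was not tested.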

How the results depend on the processing

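In Ag vs Naive the 2 members called became 4 with DESeq2 (16.0% of all genes called) and 10 with voom and sample quality weights (23.1%). The count was 1 without a filter on low counts (0.425%) and 0 with lane in the model (0%). It was also 0 when only the 10 libraries compared were fitted (0.0358%). It was 9 without Ag 3 and Naive 5 (22.9%) and 21 without Ag 1, Ag 3 and Ag 4 (54.7%). With single libraries left out it was 1 to 9 (1.42% to 21.5%). The members' median turned to -0.23 with voom, and the cause was not tested. In Ag+Costim vs Ag the 0 members called became 4 with DESeq2 (14.6% of all genes called), 31 with voom (64.5%) and 2 without Ag 3 and Naive 5 (5.73%). They became 0 to 9 with single libraries left out (0% to 19.7%). The median moved to 1.38 with voom and was 0.10 without Ag 1, Ag 3 and Ag 4. The Ampd1 difference turned to 0.02 without Ag 1, Ag 3 and Ag 4, a choice of libraries made after seeing the data. In Ag+Costim vs Naive the 23 members called became 14 without a filter (8.49% of all genes called) and 3 with lane in the model (5.43%). They became 8 to 26 with single libraries left out (21.6% to 51.0%). The 6 share tests passed became 0 to 7 with single libraries left out, where the smallest p the tests can give is larger. Within lanes 0 passed, but with so few libraries none could pass after adjustment. Ampd3's share in Ag minus Naive was -0.742 points, and it ranged from -2.27 to 0.842 with single libraries left out, being above 0 without Ag 2 (0.842) and Ag 5 (0.514).

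The labels number replicates alike in all groups. Correlations of deviations between same-numbered libraries ran from -0.324 to 0.47 in Ag vs Naive, where differently numbered libraries gave -0.594 to 0.493. They ran from -0.251 to 0.166 in Ag+Costim vs Ag and from -0.156 to 0.122 in Ag+Costim vs Naive. So few values cannot decide whether the numbers pair libraries. With the replicate block 3, 0 and 24 members were called in Ag vs Naive, Ag+Costim vs Ag and Ag+Costim vs Naive. The shares of all genes called were then 9.56%, 0% and 45.1%. By pairs, 0 shares passed a sign-flip test, whose smallest p is 0.0625, so none could pass at 0.05. Ampd1, Adss and Mthfd2 in Ag+Costim vs Naive kept their calls in all alternatives run. Depth limits Ampd1 and Ampd3, with 7 to 12 counts of Ampd1 per Ag+Costim library.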
